A study of Mus musculus with 6 samples.

Results

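The genes of the respiratory chain, 13 encoded by mitochondrial DNA and 88 by the nuclear genome, were examined in macrophages (MPs) isolated from injured skeletal muscle of 3 Control and 3 Cripto KO samples of mice. Members were taken from the deposited gene table by symbol, as every mt-Nd, mt-Co, mt-Cytb and mt-Atp gene and every gene whose symbol starts with Nduf (followed by a, b, c, s or v), Cox4 to Cox8, Uqcr, Sdha to Sdhd or Atp5, leaving out symbols that mark pseudogenes with -ps. This gave 101 of the 13008 genes in the table. By role, 7 mitochondrial members belong to complex I, 1 to complex III, 3 to complex IV and 2 to complex V, whereas the nuclear members comprise 36 subunits of complex I, 4 of complex II, 8 of complex III, 14 of complex IV (Ndufa4 included), 15 of complex V and 11 assembly factors or related proteins. The higher level of mitochondrially encoded genes in Cripto KO MPs was known when the genes were chosen. The mitochondrial genes were thus chosen by their measured difference between the groups, and the nuclear ones by symbol to set beside them. The comparison between the groups is therefore given as a description, and no test over the members was made.

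RNA was sequenced from F4/80+/Ly6CLow MPs sorted from hind limb muscles 5 days after injury with cardiotoxin (CTX), a snake toxin that destroys muscle fibers, in male C57BL/6J mice of 3 months. The labels give the Control samples as wild type and the Cripto KO samples as Tg:LysMCre::Cripto-/-. According to the methods of the study, sorted cells were also GFP+ and Control mice carried the same LysMCre transgene and R26mTmG reporter as the mutants. Cre is then present in both groups, and GFP marks cells in which it recombined the reporter. LysM (Lyz2) is active in the myeloid lineage, so that deletion depends on Cre activity in each cell, and Cripto (Tdgf1) itself was not analysed here. Each value is the number of reads of a gene, plus 0.5, per 1000000 reads of the normalized library. The reads of a sample over all genes of the table numbered 12688968 to 14141773 in Control and 14633880 to 15659847 in Cripto KO. The groups did not overlap in depth by this sum. The study calls the samples biological replicates, but the labels do not tie them to single animals, and the p-values measure the spread between these samples. A pair of libraries stood apart for genes outside the respiratory chain. Control replicate 1 had Xist at 171, against at most 0.885 elsewhere, and genes of the Y chromosome near 0, against its label as male. Control replicate 2 had Lyz2, the gene whose promoter drives Cre, at 11066 against 21.2 to 28.3 in the other samples.

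The respiratory chain passes electrons from NADH and succinate to oxygen and uses the energy released to pump protons across the inner mitochondrial membrane, and ATP synthase (complex V) makes ATP as the protons flow back. Mitochondrial DNA encodes a few core subunits of complexes I, III, IV and V, which are transcribed as long polycistronic RNAs from both strands and cut apart at the tRNAs. All subunits of complex II and all other subunits are transcribed in the nucleus, translated in the cytosol and imported. In MPs, the balance between oxidative phosphorylation and glycolysis is known to differ between pro- and anti-inflammatory states.

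Before the values of the mitochondrial members can be read, their sequences have to be considered, because the mouse nuclear genome carries copies of mitochondrial DNA. A block on the minus strand of chromosome 1 (GRCm38) holds 5 pseudogenes that the deposited table lists beside the genuine genes. Gm28437 (chr1:24613189-24613971) was identical to mt-Co3 over all of its 783 bases, Gm28661 (chr1:24614885-24615565) to mt-Co2 over 681 bases and Gm10925 (chr1:24613974-24614651) to mt-Atp6 over 678 bases. Gm28438 (chr1:24612775-24613119) differed from mt-Nd3 at 1 of 345 bases, the substitution T3C with positions counted from 1 at the 5′ end of the gene. Gm29216 (chr1:24615706-24616197) covers only bases 1054 to 1545 of mt-Co1 and was identical to it over its last 479 of 492 bases. The first bases of mt-Nd3 and of Gm28438 are given to show how little separates a mitochondrial gene from its copy, with the differing base in capitals, and the last bases of mt-Atp6 and of Gm10925 show a pair told apart only by 3 final bases that the annotated copy lacks, in capitals.
mt-Nd3, chrM:9459-9518, plus strand: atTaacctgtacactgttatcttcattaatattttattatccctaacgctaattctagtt
Gm28438, chr1:24613060-24613119, minus strand: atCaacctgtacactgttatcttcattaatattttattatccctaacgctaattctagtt
mt-Atp6, chrM:8548-8607, plus strand: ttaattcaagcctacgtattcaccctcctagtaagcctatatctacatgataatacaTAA
Gm10925, chr1:24613974-24614030, minus strand: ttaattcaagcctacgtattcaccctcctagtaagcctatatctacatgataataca

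A read from inside a stretch that is identical in gene and copy carries no base that assigns it to either genome. Of the 31-base words of the mitochondrial gene, 98.1% occurred in the copy for mt-Nd3, 99.5% for mt-Atp6 and for mt-Co2, 99.9% for mt-Co3 and 29.6% for mt-Co1. RSEM, the program used by the authors, divides such reads between the candidates by estimation, and the division differed between the samples. The copy took between 48.3% and 91.2% of the summed value of the pair for mt-Atp6, 26.8% to 85.9% for mt-Nd3, 16.9% to 39.5% for mt-Co2 and 19.0% to 38.7% for mt-Co3. For mt-Co1, which shares only its end with the copy, the range was narrow, at 19.4% to 22.1%. All other annotated genes together held 63.9% of the words of mt-Co1, so its sum with this copy may be incomplete. In what follows, these 5 genes are described by their listed value and by the sum with the copy, a step that was added after the values had been seen. The other 8 mitochondrial members have no such copy in the table, but annotated genes outside the table held 98.9% of the words of mt-Nd4l, 62.8% of those of mt-Nd4, 16.8% of those of mt-Nd5 and 13.5% of those of mt-Nd2. Genes outside the table have no value that could be added. Whether reads of these 4 members or of mt-Co1 were divided with them was not tested.

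Neighbouring mitochondrial genes also overlap, on the same strand or on opposite strands. The last 43 bases of mt-Atp8 are the first of mt-Atp6, the last 7 of mt-Nd4l are the first of mt-Nd4, and mt-Nd5 and mt-Nd6 share 14 bases on opposite strands. The ends of mt-Atp8 and mt-Nd4l are shown with the shared bases in capitals, where the start codon of the next gene can be read at the first capital. The labels do not name a strand-specific library kit, so reads of mt-Nd6, the only member on the minus strand of mitochondrial DNA, could not be told apart from RNA of the opposite strand.
mt-Atp8, chrM:7900-7969, plus strand: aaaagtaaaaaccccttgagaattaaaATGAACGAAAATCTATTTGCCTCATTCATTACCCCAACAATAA
mt-Nd4l, chrM:10134-10173, plus strand: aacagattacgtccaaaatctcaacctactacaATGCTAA

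Complex I, which takes electrons from NADH, contributed 7 mitochondrially encoded members. The 6 of them without a copy in the table were higher in all 3 Cripto KO samples than in any Control sample (6.43% of all genes). mt-Nd1 (chrM:2751-3707), part of the membrane arm next to the ubiquinone site, was 432, 452 and 432 in Control against 594, 701 and 650.2 in Cripto KO MPs. Its level was 439 ± 11.7 in Control and 648 ± 53.5 in Cripto KO (SD, n = 3 each), a 1.48-fold difference (log2 0.56, SE 0.08, adjusted p = 0.0313, limma). Of all members, mt-Nd1 had the smallest p. Its adjusted p was 0.0818 without Control replicate 2, 0.205 without Control replicate 3, 0.144 without Cripto KO replicate 2 and 0.185 without Cripto KO replicate 3. mt-Nd2 (chrM:3914-4951), a proton-pumping subunit, was 245, 248 and 224 in Control compared with 293, 364 and 331 in Cripto KO. mt-Nd4 (chrM:10167-11544), another pumping subunit, was 385, 466 and 411 in Control against 536, 621 and 552 in Cripto KO. mt-Nd5 (chrM:11742-13565), at the far end of the membrane arm, was 153, 199 and 181 in Control against 214, 246 and 209 in Cripto KO. These 3 subunits differed by 1.37-fold, 1.36-fold and 1.26-fold, with adjusted p of 0.163, 0.215 and 0.456, so that none passed the limma test over all genes although the groups did not overlap. The 2 short or weakly represented members of the complex had the same direction. mt-Nd4l (chrM:9877-10173) was 26.0, 34.4 and 25.3 in Control compared with 39.0, 41.7 and 38.7 in Cripto KO, and mt-Nd6 (chrM:13552-14070) was 79.8, 88.5 and 87.3 in Control against 106, 131 and 111 in Cripto KO. Their differences were 1.41-fold (adjusted p = 0.373) and 1.36-fold (adjusted p = 0.206). In sorted bulk cells, fewer cells of a type and less RNA per cell cannot be told apart.

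mt-Cytb (chrM:14145-15288), the heme-bearing core of complex III, was 550.1, 606.5 and 566 in Control compared with 747, 845 and 777 in Cripto KO MPs. The groups were well separated, 574 ± 29.0 against 790 ± 50.3 (SD, n = 3 each), but the 1.37-fold difference (log2 0.46, SE 0.07) did not pass the limma test over all genes (adjusted p = 0.0792). mt-Atp8 (chrM:7766-7969), a small subunit of the membrane sector of ATP synthase, was 144, 158 and 171 in Control against 190.3, 209.9 and 192 in Cripto KO, a 1.25-fold difference (adjusted p = 0.365). The 8 members without a copy in the table differed between 1.25-fold and 1.48-fold. In all 8 the groups did not overlap, with Cripto KO higher (6.43% of all genes).

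The 5 members with a nuclear copy read differently depending on whether the copy was counted. mt-Atp6 (chrM:7927-8607), the proton channel subunit of ATP synthase, was listed at 143, 624 and 112 in Control and at 369, 228 and 222 in Cripto KO MPs. Control replicate 2 was by far the highest of all samples and Control replicates 1 and 3 were the lowest. Its copy Gm10925 was the mirror image, at 1044, 583 and 1154 in Control compared with 1151, 1516 and 1302 in Cripto KO. The sum was 1187, 1207 and 1266 in Control against 1520.2, 1744 and 1524 in Cripto KO, so that the coefficient of variation in Control went from 98.1% for the listed gene to 3.34% for the sum. The difference was 1.23-fold as listed (log2 0.30, SE 0.54) and 1.31-fold for the sum (log2 0.39, SE 0.08, adjusted p = 0.222). The direction of the listed mt-Atp6 value was not stable, with a log2 fold change of -0.09 by edgeR and by DESeq2 and of -0.17 without Control replicate 3.

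mt-Nd3 (chrM:9459-9806), a small complex I subunit, behaved in the same manner. Its listed values were 34.4, 17.7 and 49.99 in Control compared with 12.9, 44.0 and 39.9 in Cripto KO, which made it the single mitochondrial member with a lower mean of log2 values in Cripto KO (log2 -0.14, SE 0.48). Without Cripto KO replicate 1 the sign turned (log2 0.43). Together with Gm28438, the values were 74.7, 58.8 and 68.3 in Control against 91.5, 108 and 90.4 in Cripto KO MPs, and the groups no longer overlapped (1.44-fold, adjusted p = 0.199).

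The 3 catalytic core subunits of cytochrome c oxidase (complex IV), the enzyme that reduces oxygen, were the most abundant members. mt-Co2 (chrM:7013-7696), which receives electrons from cytochrome c, was listed at 932, 928 and 1093 in Control compared with 1419, 1730.4 and 1669 in Cripto KO MPs. This was the largest listed difference of the 13 genes (1.63-fold, log2 0.71, SE 0.10, adjusted p = 0.0491, limma). Its copy Gm28661 lay the other way, with a log2 fold change of -0.39 (adjusted p = 0.524). The sums of mt-Co2 and Gm28661 were 1524, 1534 and 1542 in Control against 1893, 2177 and 2009 in Cripto KO, and the difference of the sum was 1.32-fold (log2 0.40, SE 0.08, adjusted p = 0.183). The call for mt-Co2 was thus lost once reads were no longer divided between the genomes, while the groups stayed apart. For the listed mt-Co2, the adjusted p was also above the threshold without Control replicate 1 (0.0623), 2 (0.136) or 3 (0.113) and without Cripto KO replicate 2 (0.245) or 3 (0.274). mt-Co3 (chrM:8607-9390), the third core subunit, was listed at 1131, 879 and 1061 in Control compared with 1522, 1764 and 1439 in Cripto KO. Its sum with Gm28437 was 1415, 1433 and 1465 in Control against 1879, 2194 and 1913 in Cripto KO (1.38-fold, adjusted p = 0.113). mt-Co1 (chrM:5328-6872), the subunit that holds the oxygen-reducing site, was 2844, 3268 and 3072 in Control compared with 3592, 3750.03 and 3422 in Cripto KO. mt-Co1 had the smallest summed difference of the 13, 1.17-fold (log2 0.23, SE 0.09, adjusted p = 0.533).

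**Figure D1:**
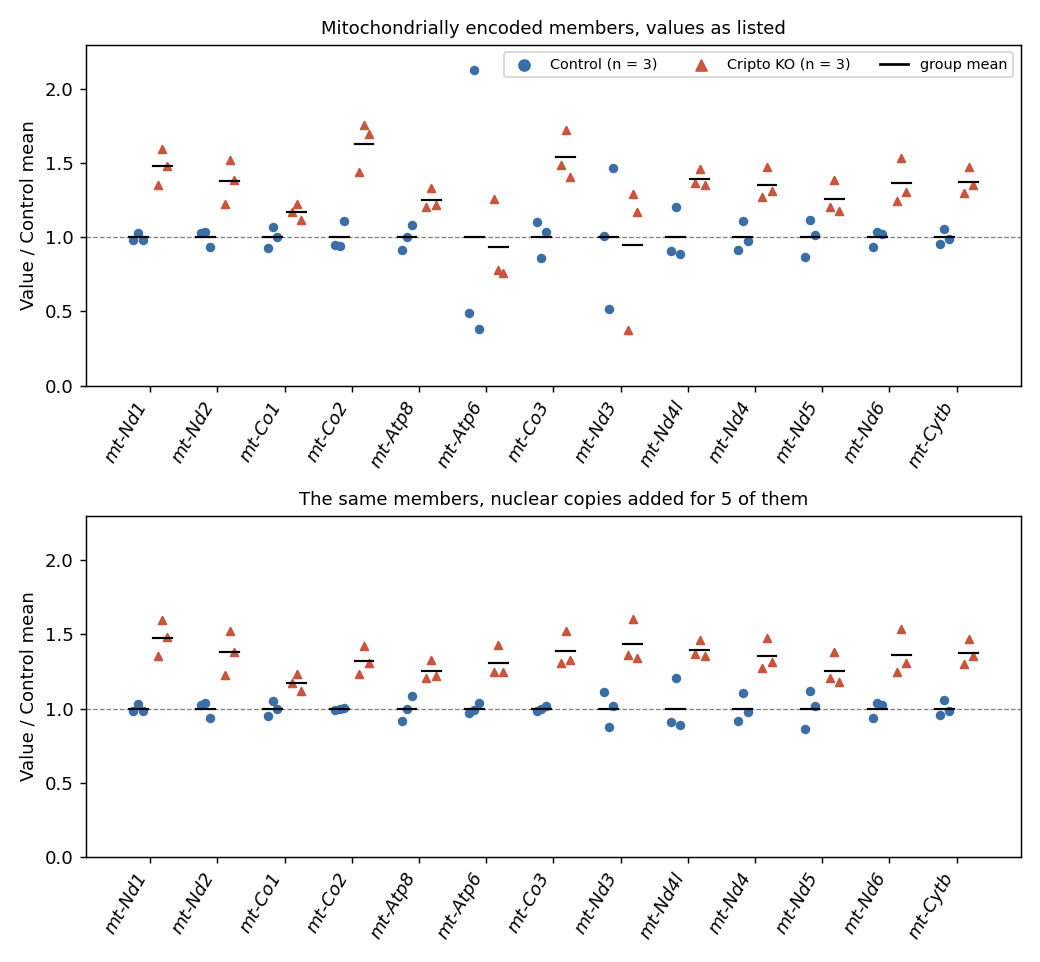
Value of each mitochondrially encoded member in each sample, divided by the mean of the 3 Control samples (y axis, linear), in genome order; circles are Control and triangles Cripto KO samples, bars are group means and the dashed line marks 1. In the upper panel, with values as listed, mt-Atp6 and mt-Nd3 scatter in both groups; in the lower panel, with the nuclear copy added for 5 genes, all Control points lie between 0.864 and 1.204 and all Cripto KO points between 1.12 and 1.601.

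As listed, 12 of the 13 mitochondrially encoded genes had a higher mean of log2 values in Cripto KO MPs (47.4% of all genes). Their median log2 fold change was 0.44 (1.36-fold), beside -0.01 over all genes. In 11 of the 13 the groups did not overlap with Cripto KO higher, which was so in 6.43% of all genes, and 11 had an unadjusted p under 0.05, as did 8.59% of all genes (3.99% with Cripto KO higher). After adjustment over all 13008 genes 2 remained with limma, mt-Nd1 and mt-Co2, beside 0.131% of all genes (0.0461% with Cripto KO higher and 0.0846% with Cripto KO lower). This number depended on the method, as it was 7 with DESeq2, which called 71 genes of the whole table against 17 with limma, and 0 without the variance trend or with a replicate block. With the copies summed, all 13 were higher in Cripto KO and did not overlap, their fold changes ranged from 1.17 to 1.48, the median stayed at 1.36-fold, and only mt-Nd1 had an adjusted p under 0.05 (0.0302, limma). Since the genes were chosen with this direction known, nothing is read from these counts beyond their description. Within the groups, the members also moved together. Cripto KO replicate 2 held the highest summed value of all 6 samples for all 13 genes, and Control replicate 1 the lowest for 9 of them. Without Cripto KO replicate 2, the median of the listed members was 0.39 above that of all genes on the log2 scale, against 0.46 with all samples. Without Control replicate 1 or 2, the libraries that stood apart for other genes, the median was 0.41 and 0.51 above that of all genes. Without Control replicate 1, 12 of the 13 listed mitochondrial genes were higher in Cripto KO and 10 had an unadjusted p under 0.05, and without Control replicate 2 the counts were 12 and 12.

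Mitochondrial ribosomal RNAs, transcribed from the same DNA but not members, had the same direction. mt-Rnr1 (12S rRNA) was 155, 137 and 147 in Control against 187, 200.4 and 202 in Cripto KO (1.34-fold, adjusted p = 0.0792), and mt-Rnr2 (16S rRNA) was 294, 273 and 295 in Control compared with 377, 393 and 339 in Cripto KO (1.29-fold, adjusted p = 0.222). For neither did the groups overlap, with Cripto KO higher (6.43% of all genes).

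Levels between genes were compared per kilobase of transcript, as the mean over the 6 samples. Among the listed mitochondrial members, mt-Co1 stood highest with 2152 per kilobase, followed by mt-Co2 (1894), mt-Co3 (1657), mt-Atp8 (871), mt-Cytb (596) and mt-Nd1 (568). The lowest were mt-Nd4l (115), mt-Nd5 (110) and mt-Nd3 (95.2). Once the copy was added, mt-Atp6 moved from 415 to 2068 per kilobase and stood beside its neighbours mt-Co3 (2189) and mt-Co2 (2602). Nuclear members spanned 1.48 to 596 per kilobase, with a median of 68.9. The highest was Cox4i1, a regulatory subunit of complex IV, followed by Atp5e (362), the epsilon subunit of the catalytic head of ATP synthase, and Cox6a1 (351), a further subunit of complex IV. The highest subunit was Ndufb8 (140.5) in complex I, Sdhb (104) in complex II and Uqcrh (214) in complex III.

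The nuclear-encoded members as a group differed little between the genotypes. Of the 88 genes, 30 (34.1%) were higher and 58 lower in Cripto KO MPs, with a median log2 fold change of -0.04. Of all genes, 47.4% were higher. In 83 genes (94.3%) the difference was within 0.25 on the log2 scale, as in 76.1% of all genes. None passed the test over all genes with limma, edgeR or DESeq2, the smallest adjusted p with limma being 0.41, and 4 had an unadjusted p under 0.05 with limma, 4 with edgeR and 3 with DESeq2 (8.59% of all genes with limma). With limma, 3 of these 4 were higher in Cripto KO, Ndufaf4, Cox7a2 and Atp5g2 (3.99% of all genes), and 1 was lower, Sdhb (4.6%). The groups did not overlap for 3 nuclear genes with Cripto KO higher (6.43% of all genes) and for 15 with Cripto KO lower (8.02% of all genes). Those 15 differed by a log2 fold change between -0.24 and -0.03. The median standard error of the nuclear members was 0.08 on the log2 scale. Of the 88, Atp5g2, Ndufa4l2 and Ndufaf4 had a larger log2 fold change than the median of the summed mitochondrial members. Whether the members of the 2 genomes differ from each other was not tested.

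**Figure D2:**
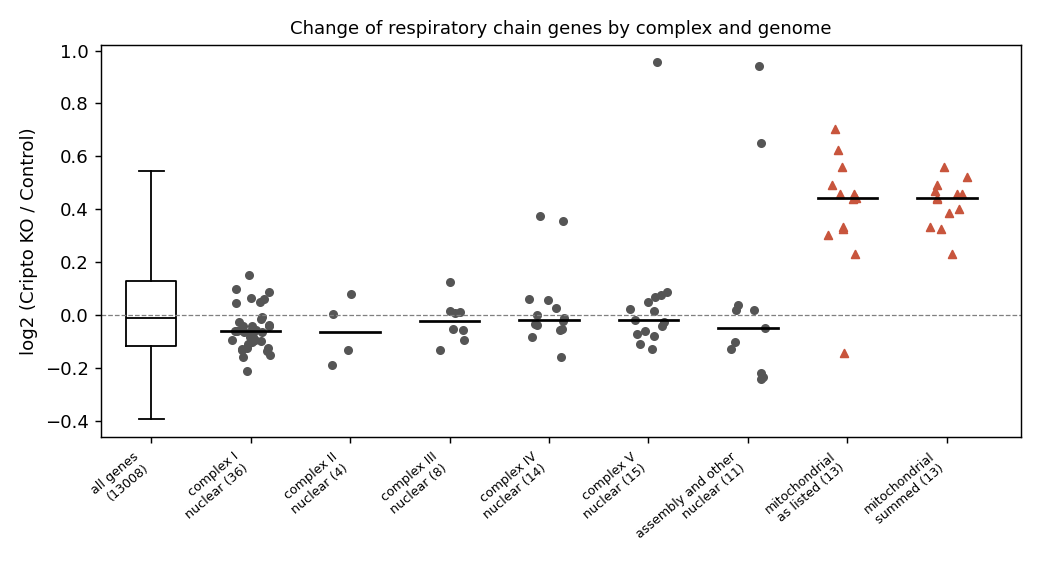
Log2 fold change of Cripto KO over Control (y axis) for all 13008 genes (box with quartiles and median, whiskers at percentiles 5 and 95), for each nuclear-encoded member by complex (grey points) and for the 13 mitochondrially encoded members as listed and with copies summed (triangles); thick bars are medians and numbers of genes are in parentheses. Nuclear medians lie between -0.07 and -0.02 (those of complexes III, IV and V turn positive with quantile normalization and without certain samples), and both mitochondrial medians at 0.44.

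By complex, the 36 nuclear subunits of complex I had a median log2 fold change of -0.06, with 7 higher (47.4% of all genes) and 29 lower in Cripto KO. Their range was narrow, from -0.21 to 0.15, and none had an unadjusted p under 0.05. Ndufb2, an accessory subunit of the membrane arm, was at the lower end with 29.0, 25.5 and 26.7 in Control against 23.97, 24.3 and 21.9 in Cripto KO (log2 -0.21, SE 0.09, adjusted p = 0.584). Ndufa13, an accessory subunit whose values may include reads of Tssk6, was 91.5, 87.5 and 90.8 in Control compared with 78.5, 86.8 and 81.9 in Cripto KO (log2 -0.13, adjusted p = 0.663). Ndufb8, another accessory subunit of the membrane arm, was 99.1, 94.6 and 103 in Control against 94.2, 92.1 and 90.6 in Cripto KO (log2 -0.10, adjusted p = 0.718). In these 3 genes all Cripto KO samples were below all Control samples. That was so in 7 of the 36 (8.02% of all genes), and 1 did not overlap with Cripto KO higher (6.43% of all genes). Assembly factors and related proteins spanned a wider range of log2 fold changes, from -0.24 to 0.94. Ndufaf4, which helps to build complex I, was 4.09, 5.26 and 4.69 in Control compared with 8.29, 6.41 and 7.34 in Cripto KO. With 1.57-fold (log2 0.65, SE 0.18, adjusted p = 0.41, limma) it had the smallest p of the nuclear members. Ndufaf7, a methyltransferase that acts on a complex I subunit, lay the other way at 9.83, 10.6 and 9.67 in Control against 8.92, 8.18 and 8.31 in Cripto KO (log2 -0.24, adjusted p = 0.651). The 11 members of this class had a median of -0.05.

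Complex II, succinate dehydrogenase, has no mitochondrially encoded subunit. Sdhb, its iron-sulfur subunit, was 138, 121 and 120.1 in Control compared with 108, 113 and 111 in Cripto KO MPs (126 ± 10.3 against 111 ± 2.45, SD, n = 3 each). The groups did not overlap, with a log2 fold change of -0.19 (SE 0.07, adjusted p = 0.533, limma). The membrane anchor Sdhd was 95.6, 98.5 and 102 in Control against 83.2, 95.1 and 92.1 in Cripto KO (log2 -0.13, SE 0.07, adjusted p = 0.676). The flavoprotein subunit Sdha was 130.1, 142 and 143 in Control compared with 142, 139 and 134 in Cripto KO, and the second anchor Sdhc was 77.9, 94.6 and 84.8 in Control against 93.3, 89.6 and 88.5 in Cripto KO. Sdha and Sdhc overlapped between the groups, with log2 fold changes of 0.00 (SE 0.07) and 0.08 (SE 0.08).

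The 8 nuclear subunits of complex III divided evenly, 4 higher and 4 lower, with a median log2 fold change of -0.02 (0.02 with quantile normalization). The Rieske iron-sulfur protein gene Uqcrfs1 was 82.8, 81.9 and 79.6 in Control compared with 74.8, 78.0 and 70.3 in Cripto KO (log2 -0.13, SE 0.07, adjusted p = 0.652). Uqcrh, the hinge protein, was 122, 119.8 and 120.3 in Control against 109.6, 120.3 and 110.0 in Cripto KO (log2 -0.09, adjusted p = 0.728).

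In complex IV, several subunits exist as isoforms whose use depends on the tissue, and in the sorted cells the muscle isoforms were far lower than the general ones. The 14 nuclear members of complex IV had a median log2 fold change of -0.02 (0.02 with quantile normalization). Cox6a1, the general isoform, was between 188 and 214 in the 6 samples, whereas Cox6a2, the isoform of heart and skeletal muscle, was between 4.20 and 4.67. Per kilobase these were 351 and 6.41. Cox7a2 was 95.1 per kilobase and the muscle isoform Cox7a1 7.96. Muscle isoforms did not differ beyond their spread between the groups. Cox6a2 was 4.36 ± 0.273 in Control and 4.35 ± 0.163 in Cripto KO, and Cox7a1 was 3.26 ± 0.330 and 2.99 ± 0.808 (SD, n = 3 each). The general isoform Cox7a2 was 64.9, 48.1 and 51.5 in Control compared with 67.4, 74.7 and 69.5 in Cripto KO (log2 0.37, SE 0.11, adjusted p = 0.437, limma), with the groups separated only narrowly by Control replicate 1. Other subunits were close to equal. Cox4i1 was 464 ± 15.5 in Control and 447 ± 34.9 in Cripto KO (log2 -0.06, SE 0.07), Cox8a 147 ± 10.2 and 152 ± 4.63 (log2 0.06), Cox6b1 141 ± 7.04 and 138 ± 7.001 (log2 -0.04), Cox7b 71.7 ± 0.392 and 70.1 ± 1.24 (log2 -0.03) and Ndufa4 67.3 ± 5.71 and 68.5 ± 5.20 (log2 0.03). Cox7a2l, which takes part in joining complexes into supercomplexes, was 316 ± 6.14 in Control and 295 ± 16.9 in Cripto KO (log2 -0.10, adjusted p = 0.711). Cox6b2, known from testis, stayed between 0.946 and 1.69, and Ndufa4l2, which is known to be induced by hypoxia, between 0.568 and 2.06, so that differences in these 2 rest on few reads.

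Among the 15 nuclear subunits of ATP synthase the median log2 fold change was -0.02 (0.03 with quantile normalization). Atp5e was 149 ± 26.3 in Control and 156 ± 7.54 in Cripto KO (log2 0.09, SE 0.12), and the coupling factor Atp5j was 82.9, 80.3 and 86.6 in Control against 75.7, 78.8 and 74.4 in Cripto KO (log2 -0.13, SE 0.07, adjusted p = 0.657). Atp5g2, one of the genes for the rotating c-ring subunit, had the largest change of the nuclear members. It was 7.69, 2.91 and 8.20 in Control compared with 7.59, 14.8 and 12.0 in Cripto KO, which overlap (log2 0.95, SE 0.39, adjusted p = 0.547, limma). Of its 31-base words 37.5% also occur in Gm10175, another gene of the table, so that its value is uncertain. The same holds for Ndufaf2, Ndufb6 and Ndufa13, which share 65.1%, 34.4% and 28.3% of their words with other genes. Atpif1, the inhibitor of ATP hydrolysis by the synthase and not a member, was 86.7, 89.2 and 87.8 in Control against 93.8, 103 and 101 in Cripto KO (log2 0.18, SE 0.07, adjusted p = 0.523, limma).

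**Figure D3:**
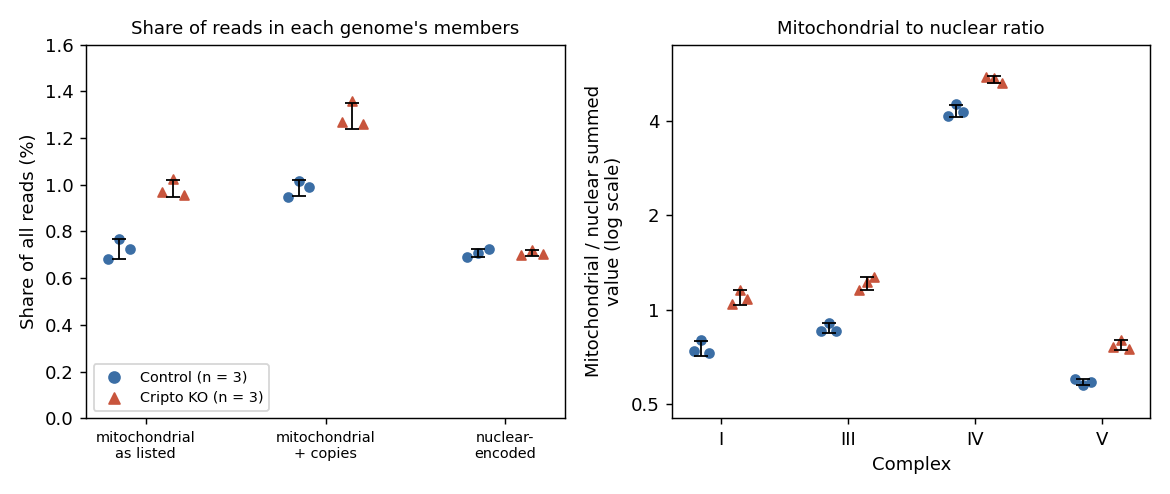
Left, share of reads (y axis, %) in the mitochondrially encoded members, in these with their copies and in the nuclear-encoded members. The share is of the reads of a sample over all genes of the table. Right, summed value of the mitochondrial (with copies) over that of the nuclear subunits of complexes I, III, IV and V (y axis, log scale). Circles are Control and triangles Cripto KO samples, with SD bars (n = 3 each) around the mean; the ratios of the 2 groups are apart in all 4 complexes and the nuclear shares overlap, at 0.689% to 0.724% in Control and 0.700% to 0.721% in Cripto KO.

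Shares were taken of the reads over all genes of the table, not of whole libraries. The 13 mitochondrial genes took 0.682%, 0.768% and 0.723% in Control against 0.969%, 1.03% and 0.957% in Cripto KO MPs. With their copies the shares were 0.948% to 1.02% and 1.26% to 1.36%. The 88 nuclear members together took a similar share of reads in either group, 0.707% ± 0.0174 in Control and 0.708% ± 0.0115 in Cripto KO (SD, n = 3 each). The mitochondrial value was also set against the nuclear one within each complex that draws on both genomes, with copies summed, a step added after the values had been seen. This ratio was higher in every Cripto KO than in every Control sample. Without the copies, the mitochondrial values of complex V overlapped, at 287, 782 and 283 in Control against 559, 438 and 414 in Cripto KO. With copies, the ratio was 0.726 to 0.800 in Control and 1.04 to 1.16 in Cripto KO for complex I. For complex III it was 0.852 to 0.908 against 1.15 to 1.27. Complex IV had 4.14 to 4.53 against 5.27 to 5.54 and complex V 0.575 to 0.599 against 0.749 to 0.802. The ratio of the group means was 1.45, 1.39, 1.26 and 1.31 for complexes I, III, IV and V, and mt-Co1, the most abundant subunit of complex IV, had the smallest fold change of the 13 with copies summed.

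Promoters of the nuclear members were searched for words of factors known to act on respiratory chain genes, on both strands, in RefSeq windows from 250 bases before to 50 after the gene start (GRCm38.p6), which were found for 74 of the 88 genes (79 windows). The NRF1 word GCGCATGCG was in 10 windows (12.7%), against 1.75% of all promoters and 3.62% of those of genes in the table. The YY1 word AAGATGGCG was in 8 windows (10.1%, against 1.40% and 3.05%) and the GABPA word CCGGAAGT in 5 (6.33%, against 3.89% and 8.11%). The genes with the NRF1 word were Ndufaf4, Atp5g2, Cox6a1, Atp5k, Atp5l, Uqcrc1, Uqcr11, Ndufa8, Ndufa11 and Ndufaf5. Their log2 fold changes lay between -0.11 and 0.95 and were not of a single sign. Shown are the promoter stretches of Atp5g2 and Ndufaf4, whose changes were among the 3 largest of the nuclear members, and of the abundant Cox6a1 (log2 -0.05, SE 0.07), up to base 30 after the start, with the NRF1 word in capitals. In all 3 the word occurs on both strands, the copies overlap, and the capitals span 10 bases. They begin 113 bases before the start in Ndufaf4, 42 before in Atp5g2 and 162 before in Cox6a1.
Ndufaf4, chr4:24897900-24898112, plus strand: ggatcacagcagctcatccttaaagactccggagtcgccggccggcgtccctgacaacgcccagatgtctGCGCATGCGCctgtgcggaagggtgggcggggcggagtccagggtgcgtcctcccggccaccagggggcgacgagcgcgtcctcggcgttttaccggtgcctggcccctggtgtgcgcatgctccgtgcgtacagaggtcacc
Atp5g2, chr15:102671018-102671197, minus strand: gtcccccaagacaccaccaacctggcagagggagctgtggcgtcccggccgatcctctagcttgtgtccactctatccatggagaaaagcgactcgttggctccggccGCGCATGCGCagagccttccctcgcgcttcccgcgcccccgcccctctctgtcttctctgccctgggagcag
Cox6a1, chr5:115348929-115349190, minus strand: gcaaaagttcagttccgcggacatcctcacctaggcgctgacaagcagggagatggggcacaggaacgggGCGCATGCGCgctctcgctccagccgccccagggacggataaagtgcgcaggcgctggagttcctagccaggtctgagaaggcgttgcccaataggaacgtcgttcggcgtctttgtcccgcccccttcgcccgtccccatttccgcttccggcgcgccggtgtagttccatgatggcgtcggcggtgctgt

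Genes that serve the respiratory chain without being members gave few differences, and none of them passed the limma test over all genes. Of 27 genes for mitochondrial transcription, RNA processing and DNA maintenance, 2 had an unadjusted p under 0.05 and were higher in Cripto KO (3.99% of all genes), Polg2 (accessory subunit of the mitochondrial DNA polymerase, log2 0.33, adjusted p = 0.536) and Fastk (log2 0.22, adjusted p = 0.559). The median of this list was 0.05. Of 11 regulators of mitochondrial biogenesis none had an unadjusted p under 0.05. The coactivator gene Ppargc1b was 2.17, 2.16 and 2.16 in Control compared with 3.46, 2.301 and 3.62 in Cripto KO (log2 0.50, adjusted p = 0.637), and Gabpa was 24.04, 24.3 and 22.3 in Control against 24.9, 26.5 and 28.4 in Cripto KO (log2 0.18, adjusted p = 0.656). The median of the regulators was 0.08. In these 4 examples, named for the smallest p of their lists, the groups did not overlap. Without overlap and with Cripto KO higher were 3 of the 27 and 2 of the 11 genes, beside 6.43% of all genes.

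Of 41 further assembly factors, 1 was higher (3.99% of all genes) and 2 were lower (4.6% of all genes) at an unadjusted p under 0.05, namely Sdhaf1 for complex II (log2 0.31, adjusted p = 0.529), Coa4 for complex IV (log2 -0.35, adjusted p = 0.523) and Sdhaf2 (log2 -0.18), with a median of -0.06. None of 20 electron carrier genes did so, the smallest p being those of Dhodh (log2 0.33, adjusted p = 0.645) and Coq7 (log2 0.25, adjusted p = 0.688). Of 19 genes of the tricarboxylic acid cycle, Fh1 (fumarase) was lower at 43.3, 51.0 and 48.1 in Control compared with 37.1, 39.8 and 39.0 in Cripto KO (log2 -0.29, SE 0.08, adjusted p = 0.42, limma), and Idh3g had a log2 fold change of -0.12. Of 21 genes for mitochondrial structure and transport, 3 were higher at an unadjusted p under 0.05 (3.99% of all genes). These were the chaperonin genes Hspd1 (149, 169 and 115 in Control against 218, 230.4 and 209 in Cripto KO, log2 0.62, adjusted p = 0.206) and Hspe1 (log2 0.27, adjusted p = 0.443), which fold imported proteins, and Phb (log2 0.21).

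Other gene groups differed between the same samples. The cytosolic heat-shock genes, 12 in number, summed to 15313 to 18523 in Control and 20955 to 23104 in Cripto KO, and 8 of them were higher at an unadjusted p under 0.05 (3.99% of all genes), among them Hsph1 (log2 0.87, adjusted p = 0.0792) and Hsp90aa1 (log2 0.57, adjusted p = 0.156). Of the fibroblast markers 13 of 13 were higher (47.4% of all genes) and 8 had an unadjusted p under 0.05 with limma (3.99% of all genes). Their sums were 657 to 696 in Control and 791 to 829 in Cripto KO. Markers of muscle fibers lay the other way, with 9 of 12 measured markers lower in Cripto KO (6839 of all 13008 genes). Of these, 6 had an unadjusted p under 0.05 with limma (4.6% of all genes), and the list had a median log2 fold change of -0.94. The sums overlapped, at 102, 54.6 and 50.1 in Control against 73.1, 31.9 and 29.1 in Cripto KO. All markers of this list were low, each at 6.72 or less in some sample, and the lowest value was 0.0354. The 12 macrophage markers, none of them under 59.6 in any sample, summed to 17923 to 18336 and 16691 to 18263, with a median log2 fold change of -0.04, and the 12 immediate-early genes, which respond to tissue dissociation, had a median of -0.05. Among the latter were Atf3 (log2 -0.24, adjusted p = 0.5) and Egr1 (log2 -0.22, adjusted p = 0.652). Neutrophil markers summed to 115 to 128 and 137 to 141, but of the 8 measured 4 were higher and 4 lower in Cripto KO. The groups did not overlap for 2 with Cripto KO higher (6.43% of all genes) and for 3 with Cripto KO lower (8.02%). Of the 8, 1 passed the limma test, Mmp9, with Cripto KO higher (0.0461% of all genes). Another 3 (Camp, Retnlg and S100a9) were at 3 reads or fewer in every sample. Endothelial markers summed to 94.9 to 114 and 98.3 to 111. What part the heat-shock genes, other cell types or the deeper sequencing of Cripto KO samples have in the mitochondrial values was not tested.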

How the data were processed

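RNA from F4/80+/Ly6CLow MPs of 3 Control and 3 Cripto KO samples was sequenced from NEBNext Ultra libraries. The authors checked reads with FastQC, trimmed them with cutadapt 1.7.1, quantified them with RSEM 1.2.20 on the GRCm38 transcriptome (release 91) and normalized them with limma; edgeR is also named in the labels. What the authors deposited is 1 normalized signal for each gene and sample, namely its reads plus 0.5 per 1000000 reads of the normalized library. Dividing by the smallest value of each sample gave whole reads for 100.0% of 78048 values (within 0.01). Of the 13008 genes, 147 carry no symbol.

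Log2 values without a pseudocount were fitted over all 13008 genes with limma 3.58.1 (lmFit, eBayes with trend, R 4.3.3), with Benjamini-Hochberg adjustment, called at 0.05. "SE" is the standard error of the log2 fold change, Cripto KO minus Control. The fit was tested on simulated reads over 13008 genes with 200 changed genes. Alternatives were edgeR 4.0.16 (quasi-likelihood) and DESeq2 1.42.0 on the recovered reads, a pseudocount of 1, a mean value of at least 1, median centring, quantile normalization, no variance trend, a block for the replicate number, and omission of each sample in turn. Gene positions, transcript lengths (APPRIS principal transcript) and 31-base words came from GENCODE M21 (GRCm38), promoters from RefSeq (GRCm38.p6). The depth allows low genes to be read only coarsely, as 11 nuclear members had under 100 reads in a sample, the lowest 7, while no mitochondrial member had under 202.

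The members and lists were chosen with earlier results of these data known. Named were all mitochondrial members, the 10 nuclear members with the smallest p, tissue isoforms, the member with the highest level per length in each complex, complex II, the 3 largest changes with a mean of at least 1, Atpif1, and 2 genes of each pathway list by p. Sdhaf2, Phb, Mmp9 and the genes with the NRF1 word were named after their values had been seen. The isoforms Cox4i2, Cox7b2, Cox8b and Cox8c were not analysed here. Protein sequences were not used here. The lymphocyte marker list is not reported here.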

Additional observations from a re-analysis of the deposited data

How the results depend on the processing

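Of the values that answer a comparison, 130 of 151 recomputed values stayed close to the reported one. Most of the 151 are counts of genes, for which closeness in size but no direction was assessed. The medians cannot move without a variance trend or with a replicate block, which change only the test. No result reversed among those with a call. The number of mitochondrial members with an adjusted p under 0.05, 2 as reported, was 7 with DESeq2, 1 with median centring, with a pseudocount of 1, with quantile normalization and with gene and nuclear copy summed (an alternative chosen after seeing the data), 0 without a variance trend and 0 to 2 when samples were left out. The number of genes called over the whole table, 17 as reported, was 17 with edgeR on the recovered reads, 71 with DESeq2, 5 without a variance trend, 6 with quantile normalization and 5 to 31 when samples were left out, and that at an unadjusted p under 0.05, 1117 as reported, was 741 to 1360 in the latter case. The causes were not tested. The median log2 fold change of the mitochondrial members relative to all genes stayed between 0.39 and 0.51 over all alternatives and that of the nuclear members between -0.06 and -0.01. The small nuclear medians by complex are less firm, as the assembly factors moved from -0.05 to 0.04 without Cripto KO replicate 1, complex II from -0.07 to -0.02 with quantile normalization, and complexes III, IV and V took a positive sign with it. They also did so when single samples were left out, complex III without Cripto KO replicate 3 (0.01), complex IV without Cripto KO replicate 1 (0.01) or 3 (0.00) and complex V without Control replicate 3 (0.02) or Cripto KO replicate 1 (0.03).

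The labels number the samples of both groups from 1 to 3. Deviations from the group means correlated at -0.21, -0.01 and 0.00 for samples with the same number. For samples with different numbers the correlations lay between -0.15 and 0.14. Since the deviations of the 3 samples of a group sum to 0, these values cannot decide whether the numbers pair the samples. With a replicate block, 2 genes were called over the whole table and 0 mitochondrial members.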
